A study of Danio rerio with 20 samples.

Results

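The contactin, neurexin and neuroligin adhesion genes encode cell surface proteins through which neurons, and neurons and glia, hold on to each other. They were chosen by symbol: every gene of the deposited tables whose name begins with cntn (which takes in cntnap), nrxn, nlgn, lrrtm, slitrk or clstn, or with lrrn and a digit. The rule found 45 of 31743 genes in 8 families, namely 6 neurexins, 7 neuroligins, 4 LRRTM, 7 SLITRK, 3 calsyntenins, 3 LRRN, 8 contactins and 7 contactin-associated proteins. A further 4 genes written in capitals (NRXN2, LRRTM4_1, LRRTM4_2 and CLSTN2, with 46, 36, 336 and 120 reads in all libraries) were outside the rule and were not counted as members.

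As background, neurexins sit on the presynaptic side of a synapse and bind neuroligins, LRRTM proteins and other partners across the cleft, while SLITRK proteins bind receptor tyrosine phosphatases and calsyntenins are synaptic members of the cadherin superfamily. Contactins are immunoglobulin proteins anchored to the membrane by a lipid. In mammals contactin-1 and contactin-associated protein 1 (Caspr) form, with neurofascin, the paranodal junction between axon and myelin, and contactin-2 and Caspr2 lie beside it at the juxtaparanode. Oligodendrocyte precursor cells (OPCs, glia from which oligodendrocytes form) receive synapses from axons.

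RNA from OPCs sorted from zebrafish was sequenced from transcript 3′ ends after 16 h of treatment, with 5 libraries in each of 4 groups. The first pair of groups was 4-aminopyridine (4AP, a blocker of voltage-gated potassium channels that raises neuronal activity) and the 4AP control. The second pair was demyelination, for which capsaicin was used to open TRPV1, its receptor channel, and the demyelination control. The title of the series sets adaptive against regenerative myelination, so 2 questions follow, how OPCs under a treatment differ from its controls and whether both responses differ. The labels give no strain, age, transgene, sort marker, number of pooled animals or control solution, and do not say which cells carried TRPV1. Nor do they say that replicates came from separate animals, so p-values measure the spread between these libraries, which may be technical.

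Total gene reads (exon plus intron reads) were 356494 to 1744483 per library in 4AP, 163158 to 897620 in the 4AP controls, 38314 to 3528970 in demyelination and 1180 to 282966 in the demyelination controls. Demyelination control 1 is the library of 1180 reads, in which 3 reads are worth 2542 CPM (reads per 1000000 total gene reads), and means of that group are given without it (n = 4). The tables' names carry a prefix whose meaning is not stated: P1 for 4AP controls 1 to 4, P2 for 4AP control 5 and all 4AP libraries, and P3 for the second pair of groups. OPC markers had reads in every group (13 or 14 of 14 genes per group), and their summed level was 1007 to 1131 CPM in 4AP and 463 to 778 CPM in the 4AP controls. It was 368 to 746 CPM in demyelination and 0 to 818 CPM in all 5 demyelination controls. The sum of 13 astroglia and radial glia markers was higher, at 1550 to 2462.5 CPM in 4AP and 1523.5 to 2440 CPM in the 4AP controls.

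In the sorted cells, 44 of the 45 genes had reads and 1, slitrk5b, had none in any library. They fell into few well read genes and many sparse ones: 14 members had fewer than 100 reads in all 20 libraries together. Where a member had no read in a library, the level that 3 reads would have given was 1.72 to 8.42 CPM in 4AP, 3.34 to 18.4 CPM in the 4AP controls, 0.850 to 78.3 CPM in demyelination and 10.6 to 27.3 CPM in demyelination controls 2 to 5. These limits cover counting error only.

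**Figure D1:**
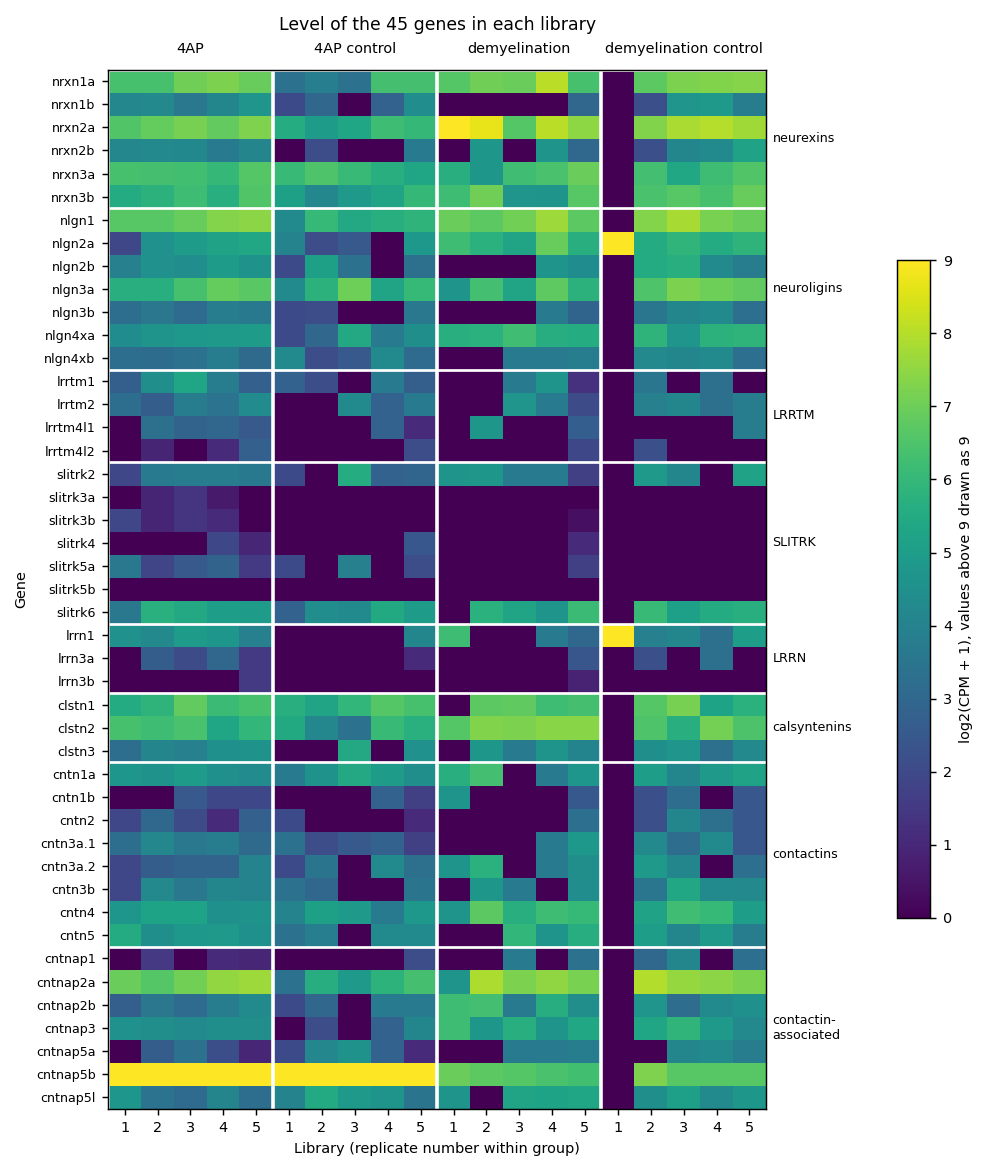
Level of the 45 genes (rows, grouped by family) in each of the 20 libraries (columns, grouped by treatment), as log2(CPM + 1) of total gene reads, with values above 9 drawn as 9. The long genes nrxn2a, nlgn1 and cntnap2a are brighter in 4AP than in the 4AP controls, cntnap5b is bright in both 4AP groups, most SLITRK, LRRTM and LRRN genes are dark, and demyelination control 1 held 2 reads of these genes.

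Of the 34742 reads on these genes, 55.3% belonged to cntnap5b alone, so sums are given without it. The other 44 genes summed to 1303 ± 204 CPM in 4AP and 706 ± 184 CPM in the 4AP controls (SD, n = 5 each), a range of 1027 to 1517 CPM against 445 to 929 CPM with no overlap on this scale. After TMM normalisation, the scaling of the tests below, the sums were 1019 to 1595 CPM in 4AP and 606 to 1052 CPM in the 4AP controls, and 4AP library 1 lay below 4AP control 5. They summed to 1702 ± 281 CPM in demyelination (n = 5) and 1756 ± 109 CPM in the demyelination control (n = 4), where the groups overlapped. Among the 4AP controls the highest sum, 929 CPM, was that of control 5, the library that shares its prefix with the 4AP libraries. In a bulk library fewer cells of a type and less RNA per cell cannot be told apart, and this holds for every level below.

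The members are long genes read mostly in their introns. Their median length was 95.7 kb, against 10.5 kb for all genes of the tables. Without cntnap5b, 82.3% of their reads lay in introns, against 32.0% of the reads of all genes. By family, the intron share was 99.4% for contactin-associated proteins, 92.5% for contactins, 89.2% for neuroligins, 88.3% for neurexins, 58.7% for calsyntenins, 46.8% for SLITRK, 28.2% for LRRTM and 23.8% for LRRN. Of 35 members with at least 50 reads, 19 had more than 90% of reads in introns and 7 had less than 50%. The libraries were prepared from 3′ ends, and the intron reads are counted with the gene in which they lie. Whether the intron reads come from unspliced RNA, genomic DNA or priming within transcripts was not tested and cannot be told apart here. Levels that include them are therefore not levels of mature mRNA alone.

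**Figure D2:**
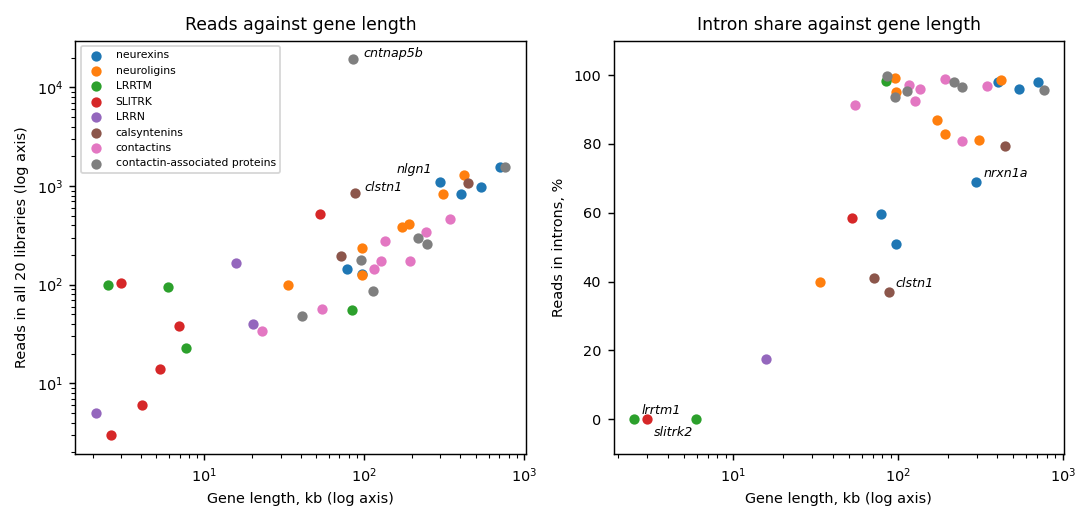
Left, reads in all 20 libraries against gene length in kb for the 44 members with reads (both axes logarithmic). Right, the percent of reads in introns against gene length for the 35 members with at least 50 reads. Points are genes, coloured by family. Reads climb with length except for cntnap5b, which lies far above the rest, and the short genes lrrtm1 and slitrk2 have no intron reads.

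Length and read number went together across members (Spearman rho = 0.861 over 44 genes without cntnap5b), as did length and intron share (rho = 0.543 over 35 genes). Both are descriptions across genes of the same libraries, and the genes are not independent. On a scale of CPM per 100 kb of gene, cntnap5b stayed highest, at 3704 in 4AP, and some short genes stood above the long ones. The short genes lrrtm1, slitrk2, lrrtm2 and lrrn1 stood at 661, 343, 188 and 140 in 4AP, clstn1 at 83.7, and the long genes nrxn1a, nlgn1, cntnap2a and nrxn2a at 37.7, 30.8, 19.5 and 17.5. Other short genes did not stand above all of these. The sparse slitrk3b, slitrk3a, lrrtm4l2, lrrn3b and slitrk4 had 31.0, 23.3, 20.3, 18.0 and 14.4, and slitrk5b had no read. On exon reads alone, as exon CPM per kb of exon, clstn1 had the highest value in 4AP at 7.26, followed by lrrtm1 at 6.61, lrrn1 at 5.32, nlgn3a at 4.08 and nrxn1a at 3.84. In 3′ libraries exon reads need not grow with exon length, so this order depends on the division. Undivided, mean exon CPM in 4AP was 50.3 for clstn1, 44.9 for nrxn1a, 22.6 for clstn2, 20.3 for nlgn3a, 18.6 for lrrn1 and 16.7 for lrrtm1.

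For 4AP against its control, which asks how OPCs differ when neuronal activity is raised, 17 of the 45 genes had enough reads to be tested. Of these, 3 were called higher and 0 lower at an adjusted p under 0.05 (edgeR quasi-likelihood test, Benjamini-Hochberg adjustment over 5161 genes): the contactin-associated gene cntnap2a, the neuroligin nlgn1 and the neurexin nrxn2a. That is 17.6% of the members tested, against 2.98% of all genes tested that were called higher and 10.1% called lower. At an unadjusted p under 0.05 there were 4 members, all higher, against 33.2% of all genes in either direction. The groups did not overlap, with 4AP higher, for 3 members and for 5.95% of all genes. The filter keeps genes with enough reads in at least 5 libraries, which a gene high in 4AP alone can meet, so these counts describe the members that passed and are no support for a rise of the families. DESeq2's Wald test called 3 members higher and 0 lower, and voom with sample quality weights 4 and 0. Over all 5161 genes the Wald test called 357 higher and 644 lower, and voom 1303 and 893.

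Across the 17 members the median log2 fold change was 0.47, with 13 above 0, against a median of 0.19 over all genes tested. Scaling by library totals in place of TMM moved the median of all genes to 0.55, turned the calls over all genes to 411 higher and 207 lower (154 and 520 with TMM), and left 3 members called. With intron reads alone the members' median was -0.10 over 15 tested, against 0.09 over all 1442 genes tested, and 0 members were called.

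**Figure D3:**
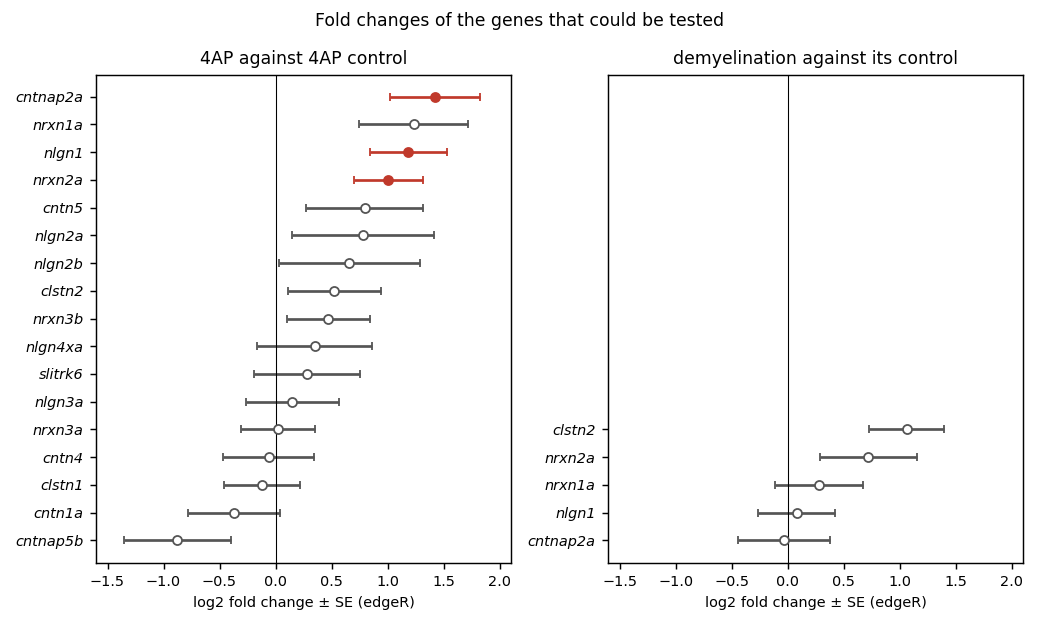
Log2 fold change (points) from edgeR for the members tested, with bars for an SE derived from its test statistic. Left, 4AP against the 4AP control (17 genes), and right, demyelination against its control (5 genes). Filled red points passed an adjusted p of 0.05: cntnap2a, nlgn1 and nrxn2a on the left and none on the right.

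Among the neurexins, the presynaptic partners, 4 of 6 genes were tested and 1 was called. The gene nrxn2a (ENSDARG00000061454, GRCz11 chr21:27636288-28340977, minus strand, 704.7 kb) had 92.6, 115, 141, 115 and 153 CPM in 4AP libraries 1 to 5 and 46.4, 30.4, 37.7, 73.5 and 62.4 CPM in 4AP controls 1 to 5. Every 4AP library lay above every control. The log2 fold change was 1.01 ± 0.31 (SE, edgeR adjusted p = 0.0405).

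The paralogue nrxn1a had 81.3, 82.3, 131, 148 and 118 CPM in 4AP and 9.27, 13.5, 9.43, 79.7 and 80.2 CPM in the 4AP controls. Controls 1 to 3 were low, whereas controls 4 and 5 came close to the lowest 4AP library, and after TMM normalisation the groups overlapped. Its log2 fold change of 1.23 ± 0.49 did not pass (edgeR adjusted p = 0.0927), and it is described because its value was seen to be large. Of its 4AP reads 62.5% lay in introns, less than for the called genes.

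The remaining neurexins tested, nrxn3b and nrxn3a, had log2 fold changes of 0.47 and 0.03 (edgeR adjusted p = 0.369 and 0.962). Those too sparse to test, nrxn2b and nrxn1b, had 12.04 to 17.9 and 11.1 to 24.8 CPM in 4AP and 0 to 12.3 and 0 to 20.1 CPM in the 4AP controls. For nrxn2b, 3 of the 4 P1 controls had no read and control 5 had 12.3 CPM. The 6 neurexins together summed to 412 ± 66.2 CPM in 4AP and 197 ± 59.6 CPM in the 4AP control (SD, n = 5 each).

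Among the neuroligins, the postsynaptic receptors of neurexins, 5 of 7 were tested and 1 was called. The gene nlgn1 (ENSDARG00000077710, GRCz11 chr11:9564154-9985415, minus strand, 421.3 kb) had 101, 99.3, 119, 158 and 173 CPM in 4AP libraries 1 to 5 and 18.5, 64.3, 42.4, 49.03 and 56.8 CPM in 4AP controls 1 to 5. The groups did not overlap, and nlgn1 was higher in 4AP by 1.18 ± 0.34 on the log2 scale (SE, edgeR adjusted p = 0.0321).

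The log2 fold changes of nlgn2a, nlgn2b, nlgn4xa and nlgn3a were 0.78, 0.66, 0.35 and 0.15 (edgeR adjusted p = 0.391, 0.468, 0.642 and 0.810). For each of these 4 the groups overlapped. In mammals neuroligin 2 is found at inhibitory synapses and neuroligin 1 at excitatory ones. The family summed to 304 ± 86.0 CPM in 4AP and 159 ± 60.7 CPM in the 4AP control (SD, n = 5 each).

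The other postsynaptic organisers gave little to test. The best read SLITRK gene, slitrk6, had 11.2, 51.9, 42.7, 32.1 and 30.5 CPM in 4AP and 6.18, 20.3, 18.9, 42.9 and 30.1 CPM in the 4AP controls. The groups overlapped (log2 fold change 0.28 ± 0.47, edgeR adjusted p = 0.685). Among the short genes lrrtm1, lrrtm2 and slitrk2, whose reads are all in exons, no library exceeded 24 reads. The genes lrrtm1, lrrtm2 and lrrn3a overlap the more widely read ctnna2, ctnna1 and immp2l on the opposite strand, and without a stated strand of counting their reads cannot be told apart.

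No member of the LRRN family, leucine-rich repeat proteins of the nervous system, was tested. The family's best read gene, lrrn1, had 22.4, 17.9, 30.03, 25.2 and 14.3 CPM in 4AP, against no read in 4AP controls 1 to 4 and 16.7 CPM (15 reads) in control 5. In controls 1 to 3, 3 reads are worth 9.27, 10.1 and 14.1 CPM, below the lowest 4AP library, and in control 4 they are worth 18.4 CPM, which is not. Control 5 lay within the 4AP range.

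Of the calsyntenins, clstn1 had 44.9, 56.4, 114, 69.9 and 81.96 CPM in 4AP and 49.4, 37.2, 61.3, 98.1 and 82.4 CPM in the 4AP controls. The groups overlapped throughout, and the log2 fold change was -0.12 ± 0.34 (edgeR adjusted p = 0.812), whose sign was positive with library totals (0.23), with exon reads (0.065) and without the filter (0.028). It is the member with the most exon reads per kb, with 30.4% of its 4AP reads in introns. For clstn2 the log2 fold change was 0.52 ± 0.42 (edgeR adjusted p = 0.378).

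**Figure D4:**
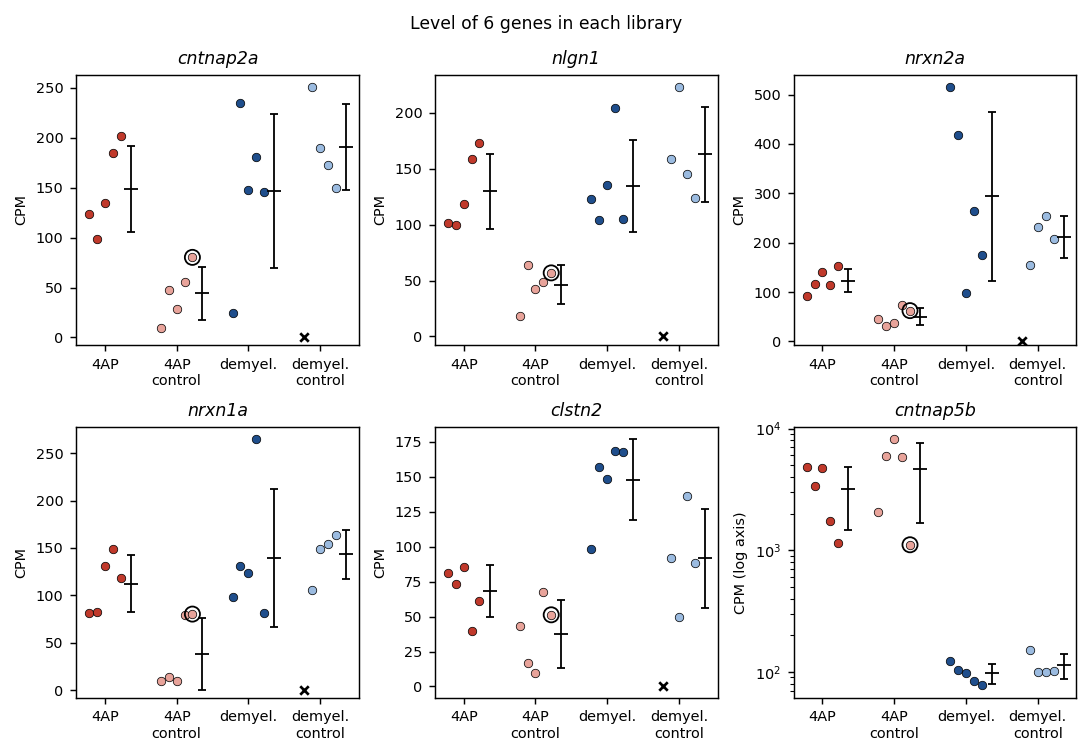
Level in CPM of 6 members in each library, by group. Points are libraries 1 to 5 from left to right, bars are the mean and SD, the ring marks 4AP control 5, and a cross marks demyelination control 1, which is left out of the mean and, for cntnap5b, not drawn. In cntnap2a, nlgn1 and nrxn2a all 5 4AP points lie above the 4AP control points, and cntnap5b (log axis) is far higher in both 4AP groups than in the other groups.

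Of the contactins, 3 of 8 were tested and none passed. The best read, cntn4, had 25.2, 36.7, 36.4, 21.8 and 22.9 CPM in 4AP and 15.5, 33.8, 28.3, 12.3 and 26.7 CPM in the 4AP controls. The ranges overlapped, and the log2 fold change was -0.06 ± 0.41 (edgeR adjusted p = 0.926), whose sign was positive with library totals (0.31) and without the filter (0.067). The log2 fold changes of cntn5 and cntn1a, whose human relative contactin-1 is the paranodal partner of Caspr, were 0.80 and -0.37 (edgeR adjusted p = 0.286 and 0.528). The relatives of the paranodal and juxtaparanodal genes differed in reads over all 20 libraries. There were 48 for cntnap1 (Caspr), 57 for cntn2 and 34 for cntn1b, against 275 for cntn1a, 176 for cntnap2b and 1577 for cntnap2a. In the same order these genes are 40.7, 54.7, 22.9, 135.7, 95.7 and 762.4 kb long. Reads rise with length among the members, so these totals do not rank expression. A single library gave 33 of the cntnap1 reads, and a single library 31 of the cntn2 reads.

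Of the contactin-associated proteins, cntnap2a, a relative of the juxtaparanodal Caspr2, had the largest log2 fold change of the 17 members tested. It (ENSDARG00000058969) lies at GRCz11 chr24:17417150-18179535 on the minus strand and, at 762.4 kb, is the longest member. It had 123, 98.5, 134, 185 and 202 CPM in 4AP libraries 1 to 5 and 9.27, 47.4, 28.3, 55.2 and 80.2 CPM in 4AP controls 1 to 5. The groups did not overlap, and the log2 fold change was 1.42 ± 0.40 (SE, edgeR adjusted p = 0.0293). Its paralogue cntnap2b was too sparse to test, at 5.61 to 18.1 CPM in 4AP and 0 to 12.3 CPM in the controls.

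For cntnap3, which was not tested, 4AP libraries had 19.0 to 22.4 CPM (8 to 37 reads) and 4AP controls 0 to 16.7 CPM (0 to 15 reads). These ranges did not overlap, but after TMM normalisation they did, with 17.9 CPM in 4AP library 3 and 18.9 CPM in 4AP control 5.

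The gene cntnap5b (ENSDARG00000075189, GRCz11 chr22:13458735-13544244, 85.5 kb) stood apart from all other members. It had 4816, 3378, 4762, 1732 and 1148 CPM in 4AP and 2067, 5950.5, 8177, 5835 and 1107 CPM in the 4AP controls, with wide spread in both groups. In demyelination it had 123, 104, 98.7, 84.2 and 77.4 CPM, and in demyelination controls 2 to 5 it had 152, 99.1, 100.05 and 101 CPM. Of its 19225 reads, 34 lay in exons. The 4AP groups thus held it at 1107 CPM or more and the other 2 groups at 152 CPM or less. These levels differ by experiment and by prefix together, which cannot be told apart.

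Within the 4AP comparison, cntnap5b differed by -0.88 ± 0.48 on the log2 scale (edgeR adjusted p = 0.202), and the groups overlapped. Without 4AP control 5 it passed as lower (-1.06, adjusted p = 0.0313). Its sign was positive with the library total, the intron share or the prefix as a term (0.66, 0.34 and 1.31), and its adjusted p ran from 0.0313 to 0.999 over all alternatives.

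All of the called genes are read almost wholly in introns. Over all libraries the intron share was 95.6% for cntnap2a, 98.5% for nlgn1 and 98.0% for nrxn2a. Exon reads of cntnap2a numbered 1, 4, 3, 19 and 7 in 4AP libraries 1 to 5 and 0, 0, 1, 1 and 15 in 4AP controls 1 to 5, and these overlapped between the groups. Over all genes the intron share of a library was 24.3% to 29.8% in 4AP and 20.5% to 38.5% in the 4AP controls, where control 5 had the lowest and the P1 controls 34.3% to 38.5%. The part of this in the result was not tested beyond the fits below.

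With intron reads alone the log2 fold changes of cntnap2a, nlgn1 and nrxn2a were 0.96, 0.54 and 0.43 (edgeR adjusted p = 0.150, 0.399 and 0.475). For these genes that fit holds nearly the same reads, scaled to the intron reads of each library, and is no separate measure. Over all 1442 genes tested it called 9 higher and 156 lower. With the prefix as a term they were 0.71, 1.02 and 0.80 (each with an adjusted p of 0.999), and 0 genes of the whole table passed. The library total or the library's intron share as a term likewise left 0 members called, and 0 of all 5161 genes tested. These counts of 0 are therefore not particular to the members. Of the 4AP controls, the single library in P2, control 5, had 80.2 CPM of cntnap2a, 56.8 CPM of nlgn1 and 62.4 CPM of nrxn2a, each below all 5 4AP libraries of the same prefix. That order is already part of the groups not overlapping for these genes and adds no separate support. With 1 control in P2, no replicated test within the prefix was possible.

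The calls also changed when single libraries were left out, as did those over all genes. Without 4AP control 1, 3 or 4, or without 4AP library 4 or 5, 0 members passed, and without control 2 there was 1. In the same order, these fits called 55, 39, 62, 61, 54 and 24 of all genes tested higher, so the losses are not particular to the members. The number of genes tested also changed, to 4238 to 6891 in these fits. Without control 5, 4 passed as higher, nrxn1a among them (log2 fold change 1.96, edgeR adjusted p = 0.00415). The fit without control 5 also called 1155 of all 4373 genes tested higher and 985 lower, against 154 and 520 of 5161 with every library. The fold changes themselves kept their sign in all of these fits, from 1.17 to 1.88 for cntnap2a, 0.98 to 1.37 for nlgn1 and 0.89 to 1.16 for nrxn2a.

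The 3 called members are all longer than 250 kb, and calls in this comparison differed by length over all genes. Of 234 tested genes of 250 kb or more, 12.8% were called higher and 5.56% lower, with a median log2 fold change of 0.71. Of 2604 tested genes under 25 kb, 0.538% were called higher and 15.1% lower, with a median of -0.22. Of the members, 9 of the 17 tested were of 250 kb or more, and their median was 0.52, lower than the median of all genes of that length. These length classes were set after the data were seen.

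**Figure D5:**
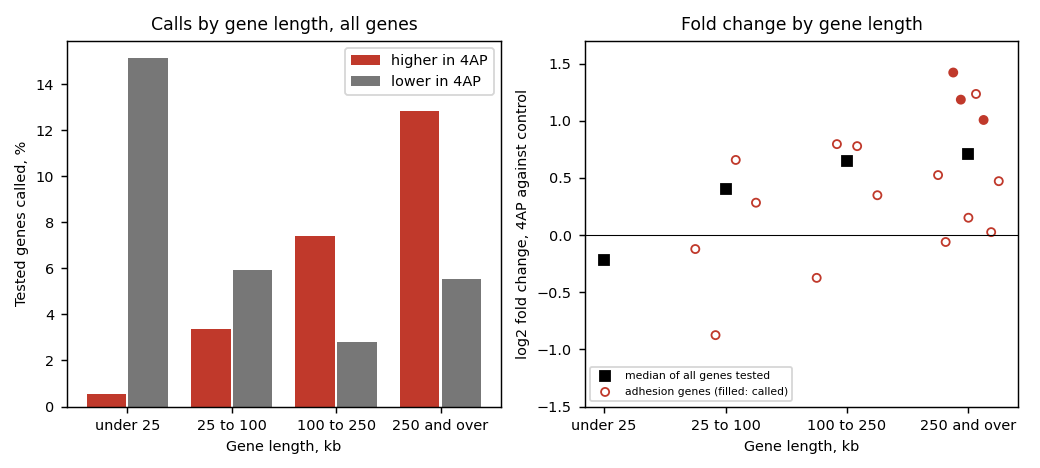
Left, percent of all tested genes called higher (red) or lower (grey) in 4AP against the 4AP control, by gene length in kb. Right, log2 fold change by the same classes, with black squares for the median of all genes tested and circles for the members, filled where called. The share called higher climbs from 0.538% under 25 kb to 12.8% at 250 kb and over, and all 3 called members are in the longest class.

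Neuron markers were described beside these genes, since many of the members are known from neurons. Of 27 neuron markers, 8 were tested, and 6 of the 8 had log2 fold changes above 0, with a median of 1.00 against 0.47 for the members. Of all 5161 genes tested, edgeR called 2.98% higher and 10.1% lower. Of these markers 0 were called higher and 1, rbfox3a, was lower (log2 fold change -0.90, edgeR adjusted p = 0.0431, and 0.00124 to 0.999 over its alternatives). That call was lost without any 1 of 9 of the 10 libraries, the exception being 4AP control 5, and in 8 of 13 alternatives that kept all libraries, DESeq2 size factors among them. At an unadjusted p under 0.05, 2 neuron markers were higher, elavl3 by 1.09 (edgeR adjusted p = 0.114) and elavl4 by 1.34 (adjusted p = 0.122) on the log2 scale, and 1 was lower. Of all genes tested, 33.2% had such a p in either direction, so these counts are near the share of all genes. Voom called 6 of the 8 higher and 1 lower, with a median of 2.28, and the replicate block called 2 higher and 0 lower. Over all 5161 genes voom called 1303 higher and 893 lower, and the block 143 and 305. Their summed level was 654 to 1072 CPM in 4AP and 312 to 938 CPM in the 4AP controls, with nefla and slc17a6a at 0 in all controls and no marker at 0 in all 4AP libraries.

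For elavl4, an RNA-binding protein of neurons, 4AP libraries had 101 to 127 CPM, against a median of 6.18 CPM in the 4AP controls and 120 CPM in control 5. In control 5 elavl4 therefore stood within the 4AP range, as did elavl3 and snap25b within theirs. There snap25a, syt1a and gap43 stood above their 4AP ranges, and rbfox3a below its own (108 CPM against 123 to 144 CPM). The part of neuronal RNA in the levels of the members was not tested. Microglia and macrophage markers were lower in 4AP for 2 of 3 tested, and astroglia and radial glia markers for 2 of 9 tested, with 0 higher in either list (edgeR). Of all genes tested 10.1% were called lower and 2.98% higher. In control 5 lcp1, apoeb and glulb stood within their 4AP ranges, at 34.5, 447 and 93.6 CPM. The fourth gene, slc1a3a, stood at 27.9 CPM, against at most 26.7 CPM in 4AP. Leaving out 1 library ended the glulb call in 6 of 10 fits and those of lcp1, apoeb and slc1a3a in 0. OPC markers were higher for 2 of 8 tested, sox6 by 1.146 (edgeR adjusted p = 0.0334) and cspg4 by 1.42 (adjusted p = 0.0323) on the log2 scale, calls that were lost in 6 and 7 of the 10 fits without 1 library. Of 10 myelinating oligodendrocyte markers tested, 0 were called by edgeR or DESeq2's Wald test. Voom called 2 higher and 1 lower, against 1303 and 893 of all 5161 genes. In edgeR 3 had an unadjusted p under 0.05, all higher, against 33.2% of all genes in either direction. Their summed level was 1073 to 2118 CPM in 4AP and 606 to 1391 CPM in the 4AP controls, with none at 0 throughout either group. The part of these cells was not tested either.

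The wider set of partners was taken from 2 lists. Of the axo-glial and immunoglobulin adhesion partners, 19 of 37 genes in the tables were tested, 5 were called higher and 0 lower, against 2.98% and 10.1% of all genes tested. All 19 had log2 fold changes above 0 (median 0.96), as had 2945 of the 5161 genes tested (median 0.19). The 5 were ncam2, tnr, ncam1a, nfasca and cadm4, with log2 fold changes of 1.77, 1.78, 1.58, 1.67 and 1.16 (edgeR adjusted p = 0.0131, 0.0170, 0.0239, 0.0333 and 0.0444). They encode neural cell adhesion molecules, the matrix protein tenascin-R, which binds contactin-1, neurofascin of the paranode and node, and an adhesion molecule of myelinating glia. DESeq2's Wald test called 6 higher and voom 11, against 357 and 1303 of all 5161 genes. With intron reads (14 tested), exon reads (4 tested), or the library total, the library's intron share or the prefix as a term, 0 passed. Over all genes, intron reads called 9 of 1442 higher, exon reads 30 of 3425, and each of these terms 0 of 5161. Leaving out 1 library ended the call of ncam1a in 4 of 10 fits and those of nfasca and cadm4 in 8 of 10 each, the exceptions being 4AP control 5 and 4AP library 3, and ended neither that of ncam2 nor that of tnr.

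Of the synaptic partners and scaffolds, which include the receptor phosphatases, latrophilins, teneurins and PSD-95 relatives, 25 of 43 genes in the tables were tested. With edgeR, 0 were called in either direction and 6 had an unadjusted p under 0.05, against 33.2% of all genes. DESeq2's Wald test called 1 higher and voom 5, against 357 and 1303 of all 5161 genes. Their median log2 fold change was 0.48, close to the 0.47 of the members, with 21 of 25 above 0. With intron reads alone it was -0.18 over 20 genes, against 0.09 over all 1442 genes tested. In demyelination 10 of these genes and 6 of the axo-glial partners were tested, and edgeR, DESeq2 and voom called 0, with 0 of either list at an unadjusted p under 0.05 in edgeR.

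For demyelination against its control, 5 members could be tested: clstn2, nrxn2a, nrxn1a, nlgn1 and cntnap2a. With edgeR, 0 of the 5 passed, against 0% of the 823 genes tested, and 1, clstn2, had an unadjusted p under 0.05, against 9.48% of all genes. DESeq2's Wald test and voom also called 0, with 1 and 2 members at an unadjusted p under 0.05. Depth limits this comparison, since in 4 of the 5 demyelination libraries 3 reads are worth 36.1 to 78.3 CPM. The tests kept demyelination control 1, the library of 1180 reads, whereas the levels given below leave it out.

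The calsyntenin clstn2, at 447.3 kb, had 98.1, 157, 148, 168 and 168 CPM in demyelination libraries 1 to 5 and 91.9, 49.6, 136 and 88.2 CPM in demyelination controls 2 to 5. Library 1 of demyelination lay within the control range and the other 4 lay above it, with 4 reads behind the value of library 1. Its log2 fold change was 1.06 ± 0.33 and did not pass (edgeR adjusted p = 0.459). The gene lies across from cbln7 on the opposite strand, and the strand of counting is not stated, so reads of the pair cannot be told apart.

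For nrxn2a, demyelination libraries had 515, 418, 98.7, 265 and 175 CPM and demyelination controls 2 to 5 had 156, 231, 255 and 207 CPM. The highest 2 values rest on 21 and 16 reads. The log2 fold change was 0.72 ± 0.44 (edgeR adjusted p = 0.784). This SE was derived from the test statistic, and it is narrower than the unadjusted edgeR p of 0.430 would give.

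The genes cntnap2a and nlgn1, both higher in 4AP, had fold changes close to 0 here. For cntnap2a the levels were 24.5, 235, 148, 180.4 and 146 CPM in demyelination and 251, 189.97, 173 and 149.96 CPM in demyelination controls 2 to 5, where demyelination library 1 rests on 1 read. The log2 fold change was -0.03 ± 0.41 (edgeR adjusted p = 0.983). For nlgn1 they were 123, 104, 136, 204 and 105 CPM and 159, 223, 146 and 124 CPM in the same groups, and the log2 fold change was 0.08 ± 0.35 (edgeR adjusted p = 0.955). For nrxn1a the log2 fold change was 0.28 ± 0.39 (edgeR adjusted p = 0.821), with demyelination library 4 the highest at 265 CPM.

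Set side by side across the experiments, cntnap2a averaged 149 ± 43.3 CPM in 4AP, 44.1 ± 26.9 CPM in the 4AP control, 147 ± 77.2 CPM in demyelination and 191 ± 43.2 CPM in the demyelination control (n = 4 there, 5 elsewhere). For nlgn1 the means were 130 ± 33.6, 46.2 ± 17.5, 134 ± 41.3 and 163 ± 42.8 CPM in the same order of groups. In both genes the 4AP control had the lowest mean, and the ranges of the other 3 groups overlapped. The experiments have separate controls and prefixes, so no test was made between these levels.

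The difference between the responses, 4AP minus its control less demyelination minus its control, was tested for 14 members in all 20 libraries. With edgeR, 0 were called, against 1.66% of 3981 genes in either direction, and 2 had an unadjusted p under 0.05, against 16.4% of all genes. The 2 were cntnap2a with a difference of 1.63 ± 0.61 (adjusted p = 0.156) and nlgn1 with 1.28 ± 0.53 (adjusted p = 0.207), on the log2 scale. For nrxn2a the difference was 0.45 ± 0.55 (edgeR adjusted p = 0.755). Of the members, DESeq2's Wald test called 0 and voom 1, cntnap2a, which also passed without 4AP control 5 (1.99, edgeR adjusted p = 0.0212). Over all 3981 genes the Wald test called 15 higher and 107 lower, and voom 371 and 272. Without 4AP control 5, edgeR called 383 of 4018 genes higher and 355 lower. It is thus not shown that the members respond differently to 4AP and to demyelination, and the p-values that missed the threshold do not show that they respond alike.

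Of the partners, tnr was the only one called by edgeR in this difference among 18 axo-glial genes tested (2.46 ± 0.66, edgeR adjusted p = 0.0435, and 0.00322 to 0.9997 over its alternatives). DESeq2's Wald test called 1 axo-glial gene higher and voom 4, against 15 and 371 of all 3981 genes. The tnr call was lost with DESeq2 size factors (adjusted p = 0.0575), with the library intron share or the prefix as a term, and in 16 of 20 fits without 1 library, the exceptions being 4AP control 5, 4AP library 3 and demyelination libraries 3 and 4. Of 25 synaptic partners 0 passed with edgeR, with 1 at an unadjusted p under 0.05, and DESeq2's Wald test and voom called 0 and 1.

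Of the cell type markers in the same comparison, the median difference on the log2 scale was 1.35 for 8 OPC markers, 1.57 for 10 myelinating oligodendrocyte markers and 1.28 for 5 neuron markers, against 0.34 for the members and 0.03 for all genes tested. With edgeR 0 markers of these lists were called, against 1.66% of all 3981 genes. An unadjusted p under 0.05 was found for 5, 6 and 3 of them, against 16.4% of all genes. Of these, 1 neuron marker had a difference below 0. DESeq2's Wald test called 0 of them, and voom called 2 OPC, 3 myelinating and 3 neuron markers with differences above 0 and 1 neuron marker below 0. Over all 3981 genes voom called 371 above 0 and 272 below 0. For 9 astroglia and radial glia markers and 2 microglia and macrophage markers the median differences were -0.28 and -1.51. Of these, edgeR called 0, with 2 and 1 at an unadjusted p under 0.05. Voom called 1 astroglia marker above 0 and 1 below 0, and 1 microglia marker below 0. The summed level of the myelinating markers had a median of 617 CPM in demyelination and 2192 CPM in the demyelination controls, control 1 with no read of them included. The part of these cells in the differences of the members was not tested.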

How the data were processed

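RNA of 20 libraries of sorted zebrafish OPCs was extracted with a micro column kit and made into 3′ libraries with the QIAseq UPX kit, per the labels' protocols. The deposited tables hold counts per gene of reads in all, unique, in exons and in introns, per the file headers, on GRCz11, per the submitters' processing notes. The aligner, strand and collapsing of molecular identifiers are not given in the sources used here.

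Total gene reads were the counts tested. Each treatment was fitted with its control (10 libraries), and the difference on all 20, with edgeR 4.0.16 (filterByExpr with a minimum count of 10 and minimum total of 15, TMM, robust quasi-likelihood test), limma 3.58.1 and R 4.3.3, and adjusted over all genes. Tables and figures used Python 3.11.15, pandas 2.3.3 and numpy 2.4.6. The fits were tested on simulated data. Alternatives included DESeq2 1.42.0, voom, other scalings and filters, exon or intron reads, a replicate block, library terms, the prefix as a term, and leaving out each library. CPM are reads per 1000000 total gene reads.

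Full values are given for called members, the best read tested member of each family and tested paralogues of called members. The gene nrxn1a was added after its values were seen. The descriptions of lrrn1 and cntnap3, neither of them tested, are also outside this rule. The members and lists were chosen with earlier results of these data known. Of 40 pairs of libraries within groups, 39 differed beyond sampling noise (chi-square test); the remaining pair includes demyelination control 1, and nothing was merged. The labels do not state that replicate numbers pair the libraries, so pairing was used only in the replicate block.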

Additional observations from a re-analysis of the deposited data

Results flagged for a closer look

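In 44 groups of 5 libraries (11 genes), 4 held a library set apart from the rest by more than 0.71 of the group's range, where chance alone gives about 1 group in 20. In demyelination, library 1 was the lowest for clstn2, at 98.1 CPM and on 4 reads. In 4AP, library 4 was the lowest for nrxn2b, at 12.04 CPM. In the 4AP controls, control 5, the single control in P2, was the highest for nrxn2b, at 12.3 CPM. In demyelination, library 4 was the highest for nrxn1a, at 265 CPM and on 22 reads.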

How the results depend on the processing

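The 3 members called higher in 4AP became 0 with intron reads (15 members tested), the library total, the library's intron share or the prefix as a term, and 0 to 4 when a library was left out. Over all genes, intron reads called 9 of 1442 higher, and each of these terms called 0 of 5161. Fits without a library called 24 to 1155 of all genes higher, against 154 with every library. With exon reads 3 members were tested and 0 called, but cntnap2a, nlgn1 and nrxn2a had too few exon reads to be among them, so this says nothing about their calls. The 0 called lower became 0 to 1 (cntnap5b without 4AP control 5). For the difference, the 0 called higher became 1 with voom and 0 to 1 when a library was left out. With the replicate block 2 members were called higher in 4AP, cntnap2a and nrxn1a (adjusted p = 0.0464), with nlgn1 and nrxn2a at 0.0502 and 0.0725. Deviations of same-numbered libraries from their group means were nearly uncorrelated (-0.027 to 0.089 in 4AP and -0.023 to 0.043 in demyelination). With libraries of such unequal depth this cannot exclude pairing, which the labels do not state. Of 13 alternatives that kept every library, the call was lost in 4 for cntnap2a, 5 for nlgn1 and 8 for nrxn2a. No member was called in demyelination under any alternative run.

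Signs turned only for members that were not called in the comparison concerned. For demyelination, the log2 fold change of cntnap2a was 0.060 with DESeq2 size factors, 0.054 with DESeq2's Wald test, 0.22 with the block and -0.16 to 0.19 without 1 library. For nlgn1 it was -0.25 with library totals, -0.0049 with voom, -0.40 without the filter, -0.17 with intron reads, -0.11 in the fit on all 20 libraries and -0.16 to 0.24 without 1 library. For nrxn1a it was -0.048, -0.21 and -0.16 to 0.55 with library totals, no filter and 1 library left out. For 4AP, clstn1 had 0.23, 0.028 and 0.065 with library totals, no filter and exon reads, and -0.25 to 0.043 without 1 library. For cntn4 the values were 0.31 and 0.067 with library totals and no filter, and -0.20 to 0.12 without 1 library. For cntnap5b they were 0.66, 0.34 and 1.31 with the library total, intron share and prefix as a term. The cause was not tested.

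In demyelination no member passed the filter with exon reads, or where all libraries of a group had to hold 10 reads. Depth left 5 of the 45 genes tested in demyelination, 17 in 4AP and 14 in the difference, and 28 were tested in none.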
